A study of Mus musculus with 9 samples.

Results

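The 10 mature miRNAs described here are the 5p and 3p arms of 5 neighbouring hairpins on mouse chromosome 12: miR-376a, miR-376b, miR-376c, miR-300 and miR-381. They were chosen by name from the deposited table of raw counts, which lists 1966 mature miRNAs, and 9 of the 10 had a count in at least 1 library. The remaining one, mmu-miR-376c-5p, was listed at 0 in all 9 libraries. In quadriceps of mice without Mbnl1, mmu-miR-381-3p was 10.1-fold higher than in wild-type quadriceps. The arms mmu-miR-300-3p and mmu-miR-376b-5p were also higher, by smaller amounts. So were mmu-miR-381-5p, which was close to 0 in WT and passed the filter on low counts only through its Mbnl1KO libraries, and mmu-miR-376a-5p, whose call was lost in 7 of 14 alternative analyses. In quadriceps of mice without Mbnl2, none of the 6 members tested was called, where 17 (5.80%) of all 293 miRNAs tested were. In 2 of 15 alternative analyses mmu-miR-381-3p was called there.

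The study sequenced small RNA from quadriceps muscle in 9 libraries, taken here as 1 per mouse, from mice aged 90 days according to the labels, to ask how loss of the splicing regulators MBNL1 and MBNL2 affects muscle miRNAs. The 3 WT mice were C57BL/6J with Mbnl1+/+ and Mbnl2+/+. The 3 Mbnl1KO mice were C57BL/6J, Mbnl1 ΔE3/ΔE3 and Mbnl2+/+. The 3 Mbnl2KO mice were labelled with the strain B6.C-Tg(CMV-cre)1Cgn/J, which carries a Cre transgene under the CMV promoter, and were Mbnl1+/+. Their Mbnl2 alleles were labelled ΔE2/ΔE2 in replicate 1, ΔE2/ΔE3 in replicate 2 and ΔE2/ΔE4 in replicate 3. The strain thus differed between Mbnl2KO and the other groups, and within Mbnl2KO the allele and the mouse cannot be told apart. Neither deletion was restricted to 1 cell type by the labels. MBNL mRNAs are not measured by small RNA sequencing, so the deletions were not checked in these libraries.

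MicroRNAs are short RNAs cut from a hairpin precursor, first by the nuclear Microprocessor with DROSHA and then by DICER in the cytoplasm. Either strand of the cut duplex, the 5p arm or the 3p arm, may be loaded into an Argonaute protein, and the bases near the 5′ end, the seed, pair with target mRNAs. The hairpins described here belong to the miR-379 to miR-410 cluster of the imprinted Dlk1-Dio3 region, which is transcribed from the maternally inherited chromosome. Its miRNAs are abundant in the embryo, the placenta and the brain, and in muscle they are known to be higher before birth than in the adult. The miR-376 transcripts are also known substrates of the enzymes that edit adenosine to inosine in RNA.

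The mature sequences of the 3p arms are printed because they show which members could be taken for each other. They were taken from RefSeq (GRCm38.p6), run 5′ to 3′, and have the seed, bases 2 to 8, in capitals.
mmu-miR-381-3p: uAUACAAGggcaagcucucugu
mmu-miR-300-3p: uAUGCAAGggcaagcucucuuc
mmu-miR-376a-3p: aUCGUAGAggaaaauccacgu
mmu-miR-376b-3p: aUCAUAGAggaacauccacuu

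The arms mmu-miR-300-3p and mmu-miR-381-3p were identical at 19 of 22 positions (86.4%). Counted from 1 at the 5′ end, they differed by the substitutions G4A, U21G and C22U, of which 1 lies in the seed. The arms mmu-miR-376a-3p and mmu-miR-376b-3p were identical at 18 of 21 positions (85.7%) and also differed by 1 substitution in the seed, G4A, beside A13C and G20U. The 4 matched 3p arms have 4 different seeds. mmu-miR-376c-3p is also a member but was not matched by name in the table of sequences.

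The 5p arms, printed the same way, include the one pair that shared a seed.
mmu-miR-376b-5p: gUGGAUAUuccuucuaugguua
mmu-miR-376c-5p: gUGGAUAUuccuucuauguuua
mmu-miR-376a-5p: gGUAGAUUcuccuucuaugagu
mmu-miR-300-5p: uUGAAGAGagguuauccuuugu
mmu-miR-381-5p: aGCGAGGUugcccuuuguauauu

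The arms mmu-miR-376b-5p and mmu-miR-376c-5p were identical over their first 18 bases and differed only by G19U. A read that ends before that base matches both, so the division of counts between these 2 arms is uncertain. The 5p arms of miR-300 and miR-381 were identical at 7 of 22 positions (31.8%), against 86.4% for their 3p arms. The 9 matched members were between 21 and 23 nt long, and levels are given as counts, not per length. Ligation and amplification in small RNA libraries favour some sequences over others, and this was not tested here.

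The hairpins of mmu-miR-381-3p and mmu-miR-300-3p are shown to place their arms, again from RefSeq (GRCm38.p6), with the 5p arm and then the 3p arm in capitals and the loop between them in lower case.
Mir381: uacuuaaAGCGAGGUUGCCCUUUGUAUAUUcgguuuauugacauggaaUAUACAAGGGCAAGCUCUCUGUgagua
Mir300: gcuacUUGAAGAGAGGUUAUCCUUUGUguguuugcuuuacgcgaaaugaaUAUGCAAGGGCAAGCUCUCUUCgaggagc

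The 5 hairpins lie in 1 direction on the plus strand of chromosome 12 within 4179 nt (GRCm39, each with 1 exact match on the chromosome). From 5′ to 3′ they are Mir376c at chr12:109689152-109689237, Mir376b at chr12:109689892-109689973, Mir376a at chr12:109690215-109690282, Mir300 at chr12:109690747-109690825 and Mir381 at chr12:109693256-109693330. The gap between Mir300 and Mir381 was 2430 nt, and the gaps between the other neighbours were 241 to 654 nt, with the hairpin of Mir654 between Mir376c and Mir376b. In the GENCODE annotation used, no other transcript on the same strand overlapped them, so they are neither exonic nor intronic there. The end of Mir381 was 2867 nt before the annotated start of the gene Mirg (chr12:109696198-109715898).

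MBNL proteins bind RNA at words of the form YGCY. On the RNA strand of the hairpins, the 4 words of this form, GC with U or C on either side, were found once in each of Mir381, Mir300, Mir376b and Mir376c and not in Mir376a. At least 1 of these words was present in 65.4% of the 382 mouse hairpins of 68 to 86 nt. A match describes the sequence and is not evidence of binding.

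The total count per library was 4761271 to 6277018, and 524 to 602 mature miRNAs had a count. The muscle miRNA miR-1a-3p took 61.4% to 73.7% of all counts. The members together had 193 to 222 counts in the WT libraries, 1373 to 1815 in the Mbnl1KO libraries and 168 to 455 in the Mbnl2KO libraries. In counts per 1000000 (CPM) WT spanned 36.0 to 40.5, Mbnl1KO 233 to 289 and Mbnl2KO 30.7 to 80.0. The lowest Mbnl1KO library was thus above every other library. Among the Mbnl2KO libraries, replicate 2 (ΔE2/ΔE3) stood apart with 455 counts, against 258 in replicate 1 and 168 in replicate 3. Levels below are normalized counts, scaled by TMM (trimmed mean of M-values) over all 9 libraries, and are given as mean ± SD of 3 mice.

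**Figure D1:**
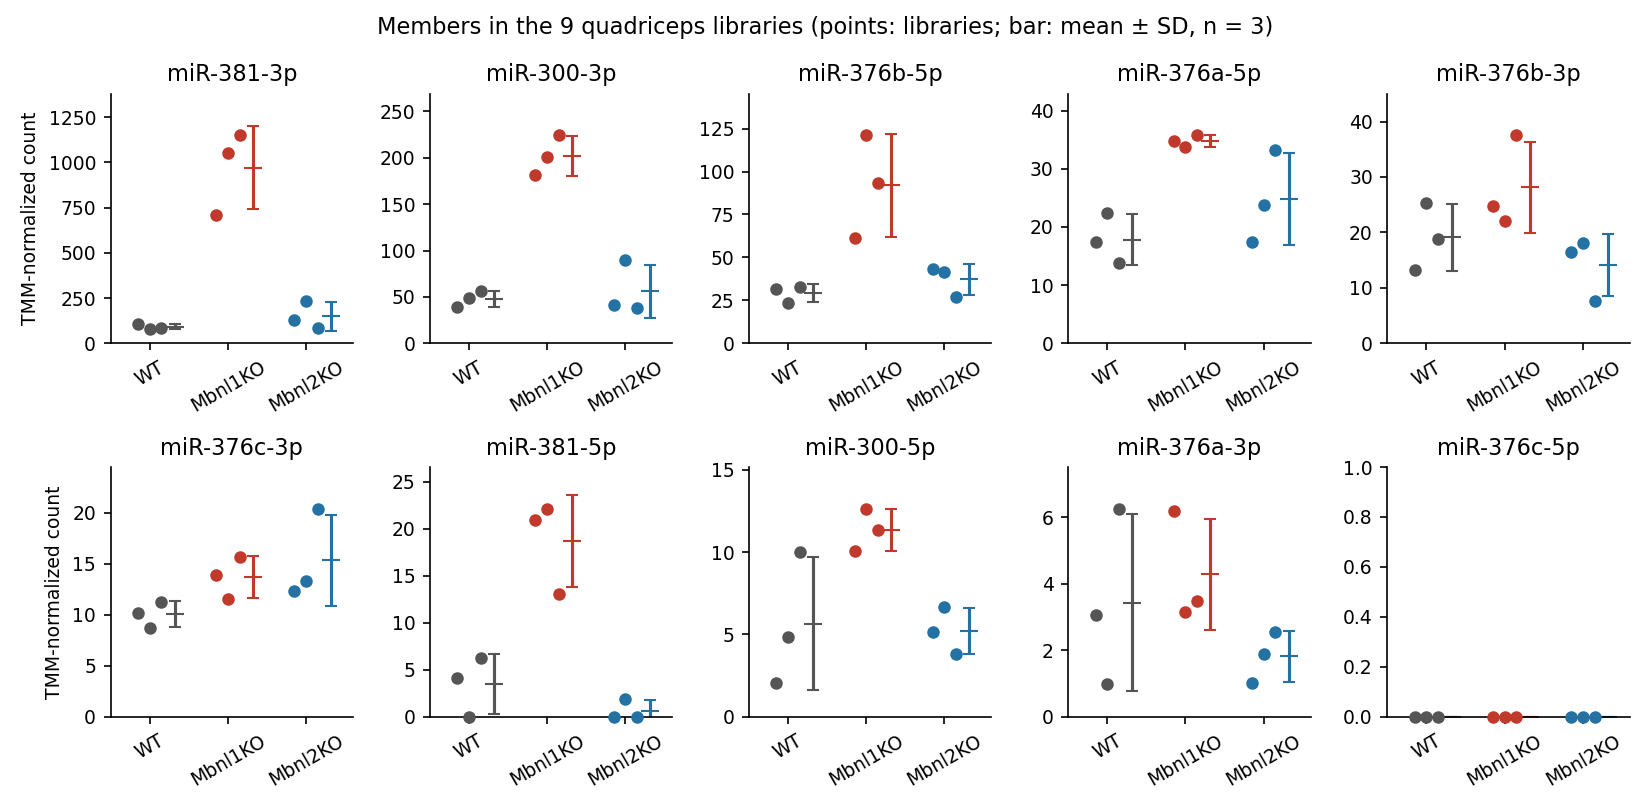
Normalized count (TMM) of each of the 10 members in each library, with WT, Mbnl1KO and Mbnl2KO side by side, points for libraries and bars for the mean ± SD of 3 mice; each panel has its own linear axis from 0. For miR-381-3p the 3 Mbnl1KO libraries lie between 710 and 1150, and the other 6 lie at or below 235.

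The most abundant member was mmu-miR-381-3p, the 3p arm of the last hairpin. Its normalized count was 106, 80.8 and 86.5 in WT replicates 1 to 3, 710, 1050 and 1150 in Mbnl1KO and 128, 235 and 81.7 in Mbnl2KO. The Mbnl1KO libraries did not overlap with either other group, and the Mbnl2KO libraries overlapped with WT. Means were 91.2 ± 13.4 (SD, n = 3) in WT, 970 ± 230 in Mbnl1KO and 148 ± 78.8 in Mbnl2KO. Ranked by count among all miRNAs of a library, mmu-miR-381-3p stood at 72 to 89 in Mbnl1KO, against 150 to 168 in WT.

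The second most abundant member was mmu-miR-300-3p, the arm that resembles mmu-miR-381-3p most. Its normalized count was 38.8, 48.6 and 56.4 in WT, 181, 201 and 224 in Mbnl1KO and 41.0, 89.2 and 38.3 in Mbnl2KO. Here too all 3 Mbnl1KO libraries were above the other 6, and the high Mbnl2KO library was again replicate 2. Means were 48.0 ± 8.79 in WT, 202 ± 21.6 in Mbnl1KO and 56.2 ± 28.7 in Mbnl2KO.

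Of miR-376b, the 5p arm had the higher count in 8 of the 9 libraries, WT replicate 2 being the exception. mmu-miR-376b-5p had normalized counts of 31.7, 23.4 and 32.6 in WT, 61.2, 121 and 93.4 in Mbnl1KO and 43.1, 41.8 and 26.8 in Mbnl2KO. The Mbnl1KO libraries did not overlap with the others, although replicate 1 was lower than the other two. mmu-miR-376b-3p had 13.3, 25.3 and 18.8 in WT, 24.8, 22.1 and 37.5 in Mbnl1KO and 16.4, 18.0 and 7.66 in Mbnl2KO. For this arm the Mbnl1KO libraries overlapped with WT.

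mmu-miR-376a-5p had normalized counts of 17.4, 22.4 and 13.8 in WT, 34.9, 33.7 and 35.8 in Mbnl1KO and 17.4, 23.7 and 33.2 in Mbnl2KO. The Mbnl1KO libraries were within a narrow range, and Mbnl2KO replicate 3 came close to it. mmu-miR-376c-3p had 10.2, 8.76 and 11.3 in WT, 13.9, 11.6 and 15.7 in Mbnl1KO and 12.3, 13.3 and 20.4 in Mbnl2KO. Both knockout groups were just above WT without overlap, and their values overlapped with each other.

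The other members had few counts. mmu-miR-381-5p had 4, 0 and 5 raw counts in WT, 27, 21 and 15 in Mbnl1KO and 0, 2 and 0 in Mbnl2KO. Every Mbnl1KO library was above every other library. mmu-miR-300-5p had 2, 5 and 8 raw counts in WT, 13, 12 and 13 in Mbnl1KO and 5, 7 and 3 in Mbnl2KO, and its Mbnl1KO libraries were above the other 6 as well. mmu-miR-376a-3p had 3, 1 and 5 in WT, 8, 3 and 4 in Mbnl1KO and 1, 2 and 2 in Mbnl2KO, with overlap between WT and Mbnl1KO. The 0 counts of mmu-miR-376c-5p allow up to 3 counts per library, which is a CPM of 0.478 to 0.630, for counting error only and for reads that do not also match mmu-miR-376b-5p.

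In WT the order of the mean levels was mmu-miR-381-3p, mmu-miR-300-3p and mmu-miR-376b-5p, and the libraries of neighbours in this order did not overlap until mmu-miR-376b-5p met mmu-miR-376b-3p. That arm in turn overlapped with mmu-miR-376a-5p, and mmu-miR-376c-3p followed below without overlap. The rarer mmu-miR-300-5p, mmu-miR-381-5p and mmu-miR-376a-3p came last, and each overlapped with the arm before it. In Mbnl1KO the first 4 places, mmu-miR-381-3p, mmu-miR-300-3p, mmu-miR-376b-5p and mmu-miR-376a-5p, were separated from each other without overlap. In Mbnl2KO neighbours from mmu-miR-381-3p down to mmu-miR-376b-3p overlapped.

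The effect of Mbnl1 loss was compared in the 3 Mbnl1KO and 3 WT libraries with edgeR's quasi-likelihood test, which took in each miRNA averaging more than 10 normalized counts in these libraries. The p-values were adjusted by the Benjamini-Hochberg method over all 319 miRNAs tested, and 0.05 was the threshold. Of the 10 members, 7 passed the filter, 5 were called higher and none lower. Across all miRNAs tested, 60 (18.8%) were called higher. mmu-miR-381-5p passed the filter only through its Mbnl1KO libraries (WT mean 3.45 ± 3.18), so that 4 of the other 6 members tested were called. The 2 arms of a hairpin, and hairpins of 1 transcript, share their source and are not independent of each other.

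mmu-miR-381-3p rose by 3.33 on the log2 scale (SE 0.194, adjusted p = 2.4e-52, edgeR) and had the smallest p of all miRNAs tested. mmu-miR-300-3p rose by 2.02 (SE 0.233, adjusted p = 6.6e-16, edgeR). mmu-miR-381-5p had been admitted to the test through its Mbnl1KO libraries alone, so its value is taken from the fit of every miRNA with a count, where the log2 fold change was 2.41 (SE 0.539, adjusted p = 0.000176, edgeR). With the filter it was 1.78 without WT replicate 2 and 3.06 without WT replicate 3, and without Mbnl1KO replicate 1 or 2 this arm did not pass the filter. The remaining arm of these hairpins, mmu-miR-300-5p, was below the filter.

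Within the miR-376 hairpins, mmu-miR-376b-5p rose by 1.58 on the log2 scale (SE 0.300, adjusted p = 2.0e-06, edgeR). mmu-miR-376a-5p rose by 0.87 (SE 0.350) with an adjusted p of 0.0416 in edgeR, close to the threshold. With DESeq2 its adjusted p was 0.157, and it also missed the threshold without WT replicate 1 (0.103), WT replicate 3 (0.138), Mbnl1KO replicate 1 (0.0893) or Mbnl1KO replicate 3 (0.0966). mmu-miR-376b-3p had a log2 fold change of 0.49 (SE 0.356, adjusted p = 0.290, edgeR). mmu-miR-376c-3p had 0.39 (SE 0.425, adjusted p = 0.505, edgeR). The called miR-376 members were both 5p arms, and the miR-376 3p arms that were tested did not pass. A call for 1 arm and none for the other is not a test of their difference, which is given below.

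The values of the 3 Mbnl1KO libraries lay above all 3 WT libraries for 6 of the 7 members tested, and for 78 (24.5%) of all miRNAs tested. The exception was mmu-miR-376b-3p. The 6 include mmu-miR-381-5p, which passed the filter only through its Mbnl1KO libraries. Among the members that did not pass the filter, mmu-miR-300-5p summed to 38 counts in Mbnl1KO and 15 in WT, a ratio of 2.1 after scaling (95% exact interval 1.13 to 4.11, counting error only). In the fit of every miRNA with a count, which includes the spread between libraries, its log2 fold change was 0.98 (SE 0.537, adjusted p = 0.305, edgeR). mmu-miR-376a-3p summed to 15 and 9 counts, a ratio of 1.38 (0.566 to 3.58), which at this depth does not distinguish the groups.

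**Figure D2:**
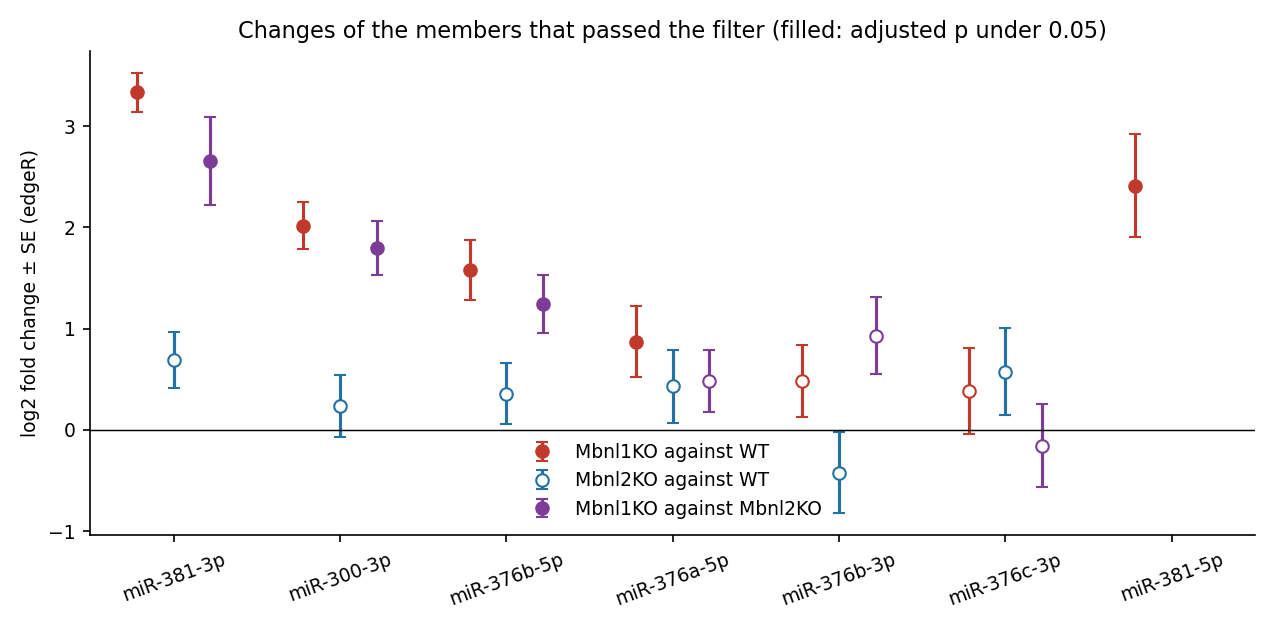
log2 fold change ± SE (edgeR) of each member that passed the filter, for Mbnl1KO against WT, Mbnl2KO against WT and Mbnl1KO against Mbnl2KO, with filled points for an adjusted p under 0.05. In Mbnl1KO against WT the values run from 3.33 for miR-381-3p to 0.39 for miR-376c-3p, and every point for Mbnl2KO against WT is open.

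Whether the members changed by the same amount was tested in the same fit with edgeR's test for differential usage, treating the 7 tested members as 1 unit. Their log2 fold changes in Mbnl1KO against WT spanned 2.94, from mmu-miR-381-3p to mmu-miR-376c-3p, and the amounts differed (adjusted p = 3.9e-09 over 77 units, edgeR). Of all units, which were otherwise the 2 arms of a hairpin, 7.79% were called. The unit included mmu-miR-381-5p, which passed the filter only through its Mbnl1KO libraries. With every miRNA that had a count in the fit, the span was 2.99 (adjusted p = 3.3e-10, edgeR). Leaving out each library in turn gave spans between 2.78 and 3.20, and all of these 6 fits passed the threshold. Without Mbnl1KO replicate 1 or 2, mmu-miR-381-5p was not in the unit. The spans were then 3.14 and 2.78 (adjusted p = 2.3e-21 and 4.4e-09, edgeR). The members' counts thus did not rise in proportion.

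The same inequality appears within each library, where no scaling between libraries enters. mmu-miR-381-3p made up 46.8%, 37.6% and 35.8% of all member counts in the WT libraries and 66.8%, 71.0% and 72.6% in the Mbnl1KO libraries. In Mbnl2KO it made up 48.4%, 54.5% and 38.1%. Every Mbnl1KO library was above the other 6. The share of mmu-miR-300-3p was 17.1%, 22.6% and 23.3% in the WT libraries and 17.0%, 13.6% and 14.2% in the Mbnl1KO libraries, which lay below WT by a narrow margin. In Mbnl2KO it was 15.5%, 20.7% and 17.9%, so that replicate 1 was below every WT library as well.

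**Figure D3:**
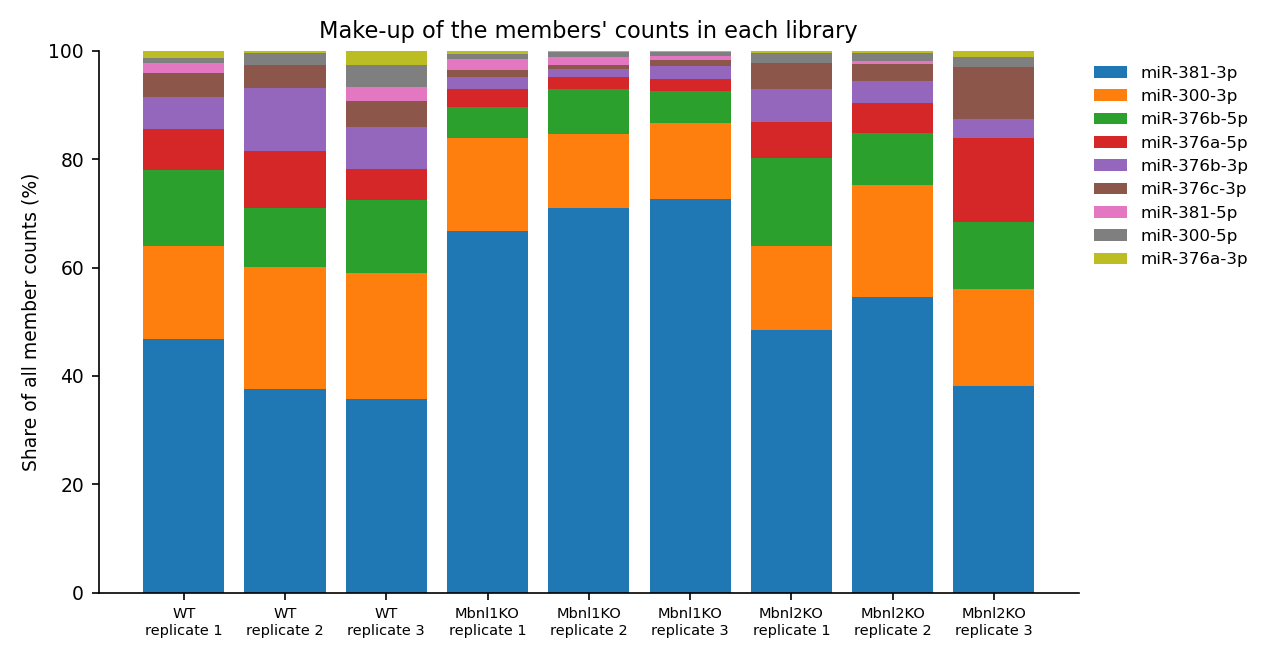
Share of each member in all member counts of a library (stacked bars, percent, 1 bar per library). The share of miR-381-3p is 66.8% to 72.6% in the Mbnl1KO libraries and 35.8% to 54.5% in the other 6.

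The ratio of mmu-miR-381-3p to mmu-miR-300-3p, the pair with 19 shared positions, was 2.74, 1.66 and 1.53 in the WT libraries. It was 3.92, 5.21 and 5.12 in Mbnl1KO and 3.13, 2.64 and 2.13 in Mbnl2KO. The Mbnl1KO libraries had the highest ratios without overlap, and WT replicate 1 fell within the range of Mbnl2KO. The mean log2 ratio was 0.93 ± 0.45 (SD, n = 3) in WT, 2.24 ± 0.23 in Mbnl1KO and 1.38 ± 0.28 in Mbnl2KO. The difference between Mbnl1KO and WT was 1.30 (exact permutation test, two-sided, p = 0.1, the smallest that 3 against 3 can give). Between Mbnl2KO and WT it was 0.45 (exact p = 0.3), and between Mbnl1KO and Mbnl2KO 0.86 (exact p = 0.1). Adjusted over the 6 ratio tests made here, these p-values were 0.15, 0.36 and 0.15.

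The use of the arms differed between hairpins. In WT, the 3p arm held 96.6% of the counts of miR-381 (256 of 265, 95% Wilson interval 93.7 to 98.2) and 89.9% of those of miR-300 (133 of 148, 84.0 to 93.8). For miR-376b it held 40.0% (54 of 135, 32.1 to 48.4) and for miR-376a 15.0% (9 of 60, 8.1 to 26.1). All 117 counts of miR-376c over the 9 libraries were assigned to its 3p arm. Since short reads of its 5p arm match mmu-miR-376b-5p as well, no limit on its 5p share is given. These intervals rest on counts pooled over 3 libraries and cover counting error only. The WT libraries ranged from 29.5% to 52.0% for miR-376b and from 4.17% to 31.2% for miR-376a, wider than the intervals. In every WT library miR-381, miR-300 and miR-376c were counted mainly from the 3p arm and miR-376a mainly from the 5p arm, while miR-376b was divided between both.

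In Mbnl1KO the 3p share was 98.1% for miR-381, 94.7% for miR-300, 24.2% for miR-376b and 11.3% for miR-376a. For miR-381, miR-300 and miR-376a the arm with more counts was the same in every WT and Mbnl1KO library. For miR-376b the 3p share was 29.5%, 52.0% and 36.6% in the WT libraries, 28.8%, 15.4% and 28.7% in Mbnl1KO and 27.6%, 30.2% and 22.2% in Mbnl2KO. The Mbnl1KO values were below WT without overlap, by a narrow margin at WT replicate 1. The counts behind them were 41 to 50 per WT library and 111 to 150 per Mbnl1KO library.

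A change of arm use between Mbnl1KO and WT was tested in edgeR over the 78 hairpins with both arms above the filter, of which 4 (5.13%) were called. Among the members' hairpins, 2 could be tested and neither was called. For miR-376b the log2 fold change of the 3p arm minus that of the 5p arm was -1.09 (unadjusted p = 0.0193, adjusted p = 0.137, edgeR). This rested on single libraries. Without Mbnl1KO replicate 1 the adjusted p was 0.0488, without WT replicate 2 it was 0.680 (log2 fold change 0.75 for the 3p and 1.43 for the 5p arm), and without Mbnl1KO replicate 2 it was 0.414 (0.61 and 1.32, edgeR). miR-381 could be tested only because its 5p arm passed the filter through the Mbnl1KO libraries. Its difference was 0.92 (unadjusted p = 0.216, adjusted p = 0.561, edgeR), and the adjusted p was 0.552 with every miRNA that had a count in the fit. With every miRNA that had a count in the fit, miR-300 and miR-376a could be tested too and gave adjusted p-values of 0.487 and 0.745 (edgeR). miR-300 also passed the filter without WT replicate 1, with log2 fold changes of 1.92 for the 3p and 0.61 for the 5p arm (adjusted p = 0.0819, edgeR).

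The loss of Mbnl2 was compared with WT in the same way. Of 293 miRNAs tested, 17 (5.80%) were called in either direction, and of the 6 members tested none was called by edgeR or by DESeq2. At an unadjusted p under 0.05 each tool had 1 member of 6, and edgeR had 52 (17.7%) of all miRNAs tested, a share close to that of the members. In edgeR this was mmu-miR-381-3p, with a log2 fold change of 0.69 (SE 0.276, unadjusted p = 0.0213, adjusted p = 0.164). This value rested on single libraries. It was 0.23 without Mbnl2KO replicate 2, and 1.00 with an adjusted p of 0.0039 without Mbnl2KO replicate 3 (edgeR). The alleles of these mice were ΔE2/ΔE3 and ΔE2/ΔE4.

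For mmu-miR-300-3p the log2 fold change in Mbnl2KO against WT was 0.24 (SE 0.304), and it was -0.24 without Mbnl2KO replicate 2. The values were 0.36 for mmu-miR-376b-5p, 0.43 for mmu-miR-376a-5p, 0.58 for mmu-miR-376c-3p and -0.42 for mmu-miR-376b-3p, with adjusted p-values of 0.526 to 0.597 (edgeR). The groups did not overlap for 1 of the 6 members, mmu-miR-376c-3p, and were higher without overlap for 41 (14.0%) of all miRNAs tested. The log2 fold changes of the members spanned 1.12, and the test for unequal change gave an adjusted p of 0.794 (edgeR). A p above the threshold does not show that a level was the same in both groups.

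Mbnl1KO was also compared with Mbnl2KO, which shares its Mbnl1KO libraries with the comparison above but leaves out WT. Of 311 miRNAs tested, 52 (16.7%) were called higher in Mbnl1KO, and 3 of the 6 members tested were among them. mmu-miR-381-3p was higher by 2.66 on the log2 scale (SE 0.433, adjusted p = 0.0082, edgeR). mmu-miR-300-3p was higher by 1.79 (SE 0.268, adjusted p = 3.2e-05, edgeR) and mmu-miR-376b-5p by 1.24 (SE 0.288, adjusted p = 0.0019, edgeR).

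The log2 fold change in this comparison was 0.93 for mmu-miR-376b-3p (SE 0.382, adjusted p = 0.0734, edgeR), 0.48 for mmu-miR-376a-5p (SE 0.305, adjusted p = 0.244) and -0.15 for mmu-miR-376c-3p (SE 0.408, adjusted p = 0.770). Groups did not overlap for 5 of the 6 members, and were higher without overlap for 81 (26.0%) of all miRNAs tested. The amounts again differed between members (span 2.81, adjusted p = 0.000322 over 75 units, of which 9.33% were called, edgeR). mmu-miR-381-5p, which was not tested here, summed to 63 counts in Mbnl1KO and 2 in Mbnl2KO, a ratio of 26.2 after scaling (95% exact interval 6.95 to 221, counting error only).

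The members were set against the other miRNAs of the miR-379 to miR-410 cluster, a list of 65 mature miRNAs of which 14 were listed at 0. In Mbnl1KO against WT, 30 of them were tested, and 22 were called higher and none lower, against 18.8% and 14.7% of all miRNAs tested. Their median log2 fold change was 1.12, against -0.01 over all miRNAs tested. Their summed normalized count was 8119 to 9377 in Mbnl1KO, 3016 to 3088 in WT and 3100 to 3895 in Mbnl2KO. In Mbnl2KO against WT, none of 26 tested was called (median 0.20), against 17 (5.80%) called of all 293 miRNAs tested (median 0.01). On the proximal side of the Dlk1-Dio3 region, 7 of 9 tested miRNAs were higher in Mbnl1KO (median 1.60) and none was lower, beside the same shares. In Mbnl2KO against WT fewer miRNAs of both lists were tested (26 and 7). Some may thus have passed the filter only through their Mbnl1KO libraries, and how many was not counted.

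Among the 37 tested miRNAs of the whole cluster, mmu-miR-381-3p had the largest log2 fold change. The second largest was that of mmu-miR-487b-3p, with 2.85 (SE 0.187, adjusted p = 1.7e-41, edgeR), whose hairpin follows that of miR-381 at 18.27 kb from the start of the miR-379 hairpin, against 17.76 kb for miR-381. mmu-miR-369-5p followed with 2.50 (adjusted p = 4.9e-19, edgeR). Of the members, mmu-miR-381-5p ranked 5th, mmu-miR-300-3p 6th, mmu-miR-376b-5p 14th, mmu-miR-376a-5p 24th, mmu-miR-376b-3p 28th and mmu-miR-376c-3p 31st. The members thus ran from the top of the cluster to its lower ranks, and no member of the rest of the cluster was called lower. The lowest value was that of mmu-miR-323-3p, -0.89 (SE 0.376, adjusted p = 0.0522, edgeR), just above the threshold.

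**Figure D4:**
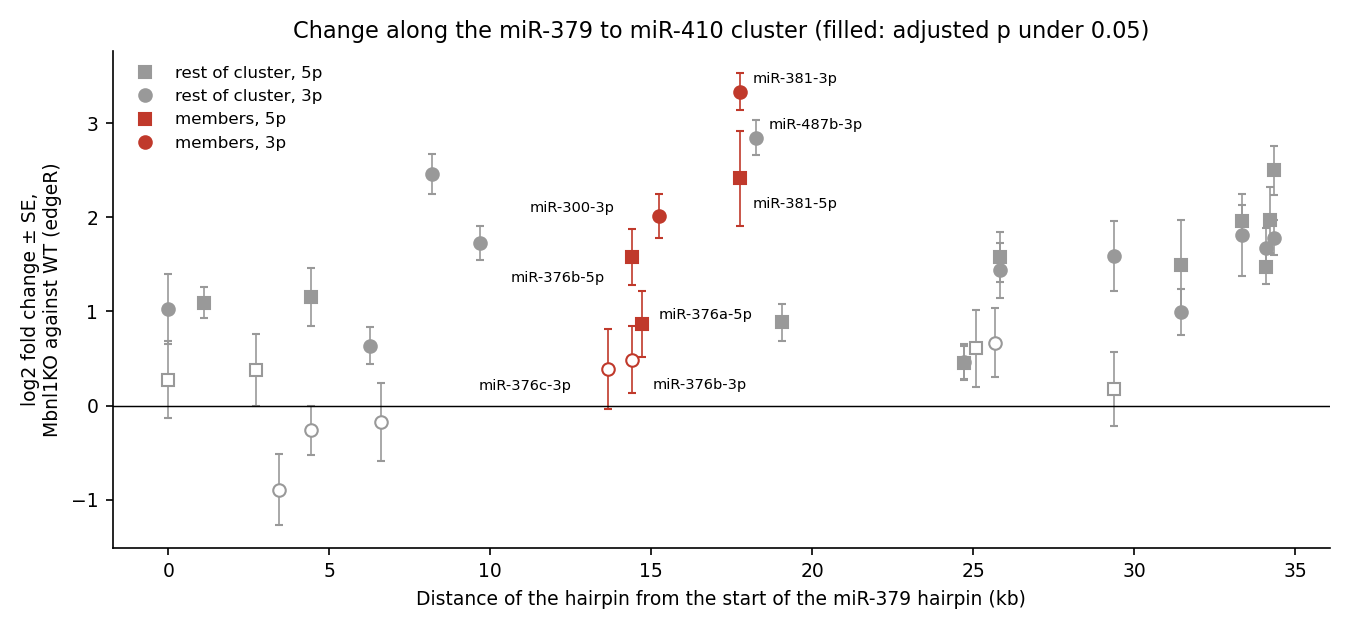
log2 fold change ± SE of Mbnl1KO against WT (edgeR) for each tested miRNA of the cluster, against the distance of its hairpin from the start of the miR-379 hairpin (kb), with members in red, the rest in grey, squares for 5p and circles for 3p arms, filled for an adjusted p under 0.05. The members near 14 kb (miR-376) lie between 0.39 and 1.58, and the 3 tested arms of miR-300 and miR-381 lie between 2.02 and 3.33.

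Within a library, the log2 ratio of the members' summed counts to those of the rest of the cluster was -3.77, -3.81 and -3.64 in WT, -2.93, -2.51 and -2.56 in Mbnl1KO and -3.55, -3.17 and -3.90 in Mbnl2KO. The members were 6.64% to 7.42% of the cluster's counts in WT and 11.6% to 15.0% in Mbnl1KO, and 6.28% to 9.98% in Mbnl2KO. The difference of the mean log2 ratios between Mbnl1KO and WT was 1.07 (exact permutation test, two-sided, p = 0.1, the smallest possible). It was 0.20 between Mbnl2KO and WT (exact p = 0.5) and 0.87 between Mbnl1KO and Mbnl2KO (exact p = 0.1), with adjusted values of 0.15, 0.50 and 0.15 over the 6 ratio tests. With the medians of log2 (count + 1) in place of sums, the difference was 0.13 between Mbnl1KO and WT and 0.42 between Mbnl2KO and WT, and it turned to -0.29 between Mbnl1KO and Mbnl2KO.

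This difference rested on 1 arm. Without mmu-miR-381-3p, an alternative added after seeing the data, the log2 ratio was -4.68, -4.49 and -4.28 in WT, -4.52, -4.30 and -4.43 in Mbnl1KO and -4.51, -4.31 and -4.59 in Mbnl2KO. The groups overlapped, and the difference between Mbnl1KO and WT was 0.07 (exact permutation test, two-sided, p = 0.7). That difference was smaller than the SD within WT (0.20) and within Mbnl1KO (0.11). The arm left out had the largest rise, and the rest of the cluster kept its own largest risers, so the difference had to shrink. This p therefore cannot decide whether the other members moved with the rest.

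**Figure D5:**
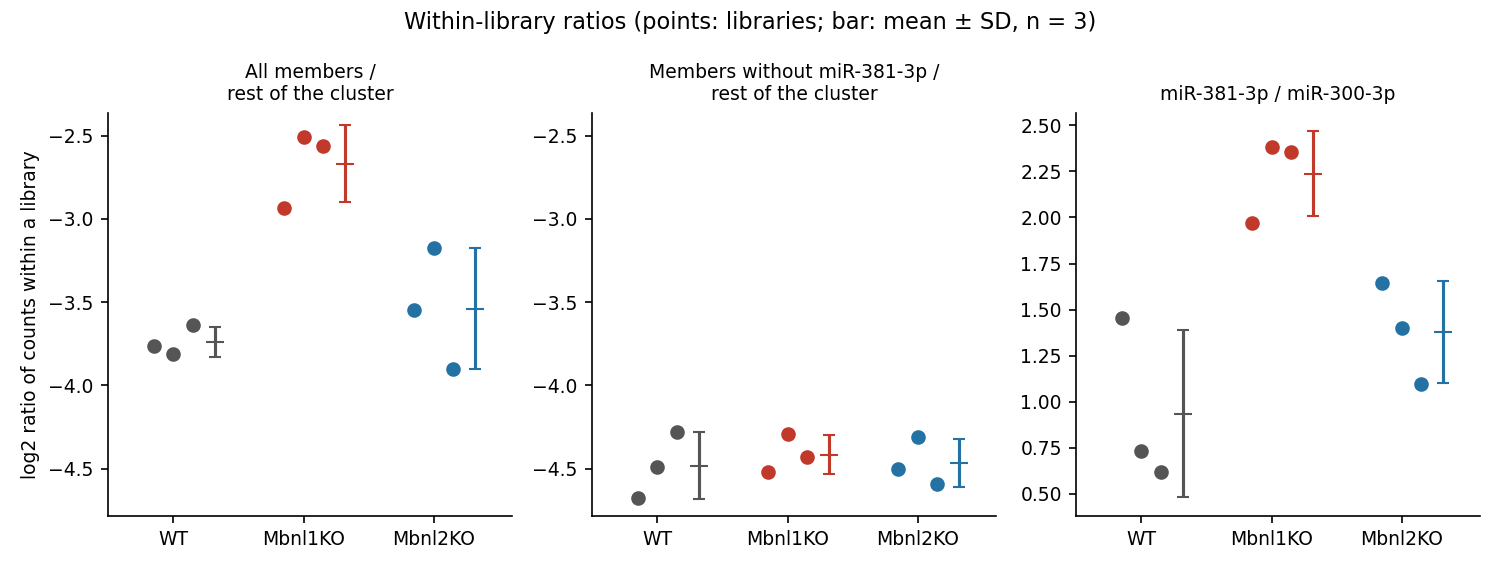
log2 ratios of counts within each library, for all members over the rest of the cluster, for the members without miR-381-3p over the rest of the cluster, and for miR-381-3p over miR-300-3p, with points for libraries and bars for the mean ± SD of 3 mice. The Mbnl1KO libraries lie above the other 6 in the first and last panel, while in the middle panel all 9 libraries lie between -4.68 and -4.28.

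The miRNAs whose pattern over the 9 libraries was most like the mean of the 6 members that averaged more than 10 normalized counts were mmu-miR-434-5p (Pearson r = 0.993), mmu-miR-541-5p (0.985), mmu-miR-127-5p (0.984), mmu-miR-543-3p (0.976) and mmu-miR-127-3p (0.974), among 304 candidates. The likeness was measured on log2 CPM, and it rests mainly on the separation of the 3 Mbnl1KO libraries from the other 6. Of the 25 closest miRNAs, 14 belonged to the rest of the cluster and 5 to the proximal side of the region. Between members, r over the same 9 libraries was 0.97 for mmu-miR-381-3p and mmu-miR-300-3p, 0.57 for the 2 arms of miR-376b and 0.21 for mmu-miR-381-3p and mmu-miR-376c-3p.

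Markers of the cell types that quadriceps can hold were examined beside these results. In bulk tissue, fewer cells of a type and less RNA per cell cannot be told apart. The muscle fibre miRNAs were all present, and of the 5 tested in Mbnl1KO against WT, mmu-miR-206-3p (log2 fold change 1.93) and mmu-miR-133b-3p (0.72) were called higher and mmu-miR-1a-3p (-0.40) lower. Across all miRNAs tested in this comparison, 18.8% were called higher and 14.7% lower. Of 8 immune and blood cell miRNAs, 6 were tested, 1 was higher and 3 were lower. Their summed normalized count was 2802 to 3450 in Mbnl1KO, 2721 to 3185 in WT and 2970 to 3204 in Mbnl2KO, with mmu-miR-142a-3p at 0. Of 7 connective tissue and vessel wall miRNAs, 5 were tested, none was higher and 1 was lower. Their summed normalized count was 34304 to 49410 in Mbnl1KO, 36138 to 38271 in WT and 44449 to 50210 in Mbnl2KO, with both arms of miR-126a at 0. The 0 counts of these markers do not show that the miRNAs were absent, and their cause was not tested. The other arm of miR-142a, mmu-miR-142a-5p, had 406 counts over the 9 libraries. By the summed normalized count, the muscle fibre miRNAs, of which mmu-miR-1a-3p makes up most, were at 3285780 to 4212800 in Mbnl1KO, 4600170 to 4892730 in WT and 4014790 to 5541700 in Mbnl2KO, so that Mbnl1KO was below WT without overlap. The connective tissue and vessel wall list overlapped between Mbnl1KO and WT by this measure, but as a share of all counts it was 0.751% to 0.890% in Mbnl1KO and 0.605% to 0.638% in WT, without overlap. In Mbnl2KO this share was 0.718% to 0.856%, also above WT without overlap. The part of cell composition in the members' change was not tested.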

How the data were processed

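Small RNA libraries (NEXTflex, 200 ng total RNA, Illumina sequencing) were made from quadriceps of 3 WT, 3 Mbnl1KO and 3 Mbnl2KO mice. The authors deposited raw counts per mature miRNA, with no normalization. According to the study's methods, clipped and collapsed reads were mapped in sense to miRBase precursors without mismatches, and reads at an annotated mature miRNA with a margin of 2 nt were summed. Whether this made the deposited table is not stated, and reads carrying edited bases would not be counted. Labels name DESeq2 without a version. Here each pair of groups was fitted with edgeR 4.0.16 (limma 3.58.1, R 4.3.3; robust quasi-likelihood, TMM) on miRNAs with a mean normalized count above 10, after tests on simulated data; DESeq2 1.42.0 was an alternative. SE is the log2 fold change divided by the root of F. Differential usage used edgeR's diffSpliceDGE. All 10 members are named, beside the 5 miRNAs most like them and the 2 called miRNAs with the largest rise in the rest of the cluster. Members and lists were chosen with earlier results of these data known. Each library is taken as 1 mouse, which the labels do not state, so p-values measure the spread between these libraries. Replicate libraries differed by more than counting error (chi-square per degree of freedom 38.8 to 272). The alternatives were other normalizations, filters, thresholds, a joint fit, a replicate block and leaving out each library.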

Additional observations from a re-analysis of the deposited data

How the results depend on the processing

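The calls of mmu-miR-381-3p, mmu-miR-300-3p and mmu-miR-376b-5p in Mbnl1KO held under all alternatives in which they were tested. The number of members called higher in Mbnl1KO against WT was 2 with a mean normalized count above 100, where only 2 members were tested, and 3 to 5 with 1 library left out (3 without Mbnl1KO replicate 1). mmu-miR-376a-5p lost its call in 7 of 14 alternatives. In Mbnl2KO against WT the number was 1 with every miRNA with a count (mmu-miR-381-3p, adjusted p = 0.0484, edgeR) and 0 to 1 with 1 library left out. Against Mbnl2KO, 3 to 4 members were called with 1 library left out. The members' hairpins called for arm use were 0 to 1 with 1 library left out. With medians in place of sums, the difference of the members' log2 ratio to the rest of the cluster was 0.13 in Mbnl1KO against WT, 0.42 in Mbnl2KO against WT and -0.29 in Mbnl1KO against Mbnl2KO. Without mmu-miR-381-3p it was 0.067 in Mbnl1KO against WT and 0.053 against Mbnl2KO. With 1 library left out this difference was 0.99 to 1.20 against WT and 0.69 to 1.06 against Mbnl2KO, and 0.02 to 0.38 in Mbnl2KO against WT. For the log2 ratio of mmu-miR-381-3p to mmu-miR-300-3p it was 1.14 to 1.56, 0.72 to 0.99 and 0.29 to 0.70 in the same order. Directions turned, with no call, for mmu-miR-300-3p in Mbnl2KO against WT (-0.24 without Mbnl2KO replicate 2, the lowest value with 1 library left out, the highest being 0.46). They also turned for mmu-miR-376c-3p in Mbnl1KO against Mbnl2KO with library totals (0.12) or without Mbnl2KO replicate 3 (0.036, the highest value with 1 library left out, the lowest being -0.33). Library totals without TMM moved the median log2 fold change of all miRNAs in Mbnl1KO against WT from -0.01 to 0.28 and the share of higher calls from 56.1% to 89.2%, with 5 members called. Against Mbnl2KO the median moved from 0.09 to 0.35, the share from 61.2% to 94.4%, and mmu-miR-376b-3p was called (adjusted p = 0.0267, edgeR). With the replicate number as a block, 5, 0 and 3 members were called in Mbnl1KO against WT, Mbnl2KO against WT and Mbnl1KO against Mbnl2KO, out of 93, 21 and 81 calls in place of 107, 17 and 85. Libraries with the same number did not deviate together (correlations -0.15 to 0.14), and not every library correlated best with its own number. The causes of these shifts were not tested. Depth limits mmu-miR-300-5p and mmu-miR-376a-3p, below the filter with all 6 libraries (adjusted p = 0.305 and 0.824 with every miRNA with a count, edgeR). For mmu-miR-376c-5p, which had no count, the part of depth and of reads shared with mmu-miR-376b-5p was not tested.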
